A study of Mus musculus with 11 samples.

Results

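Open chromatin at 4 genes of the LIF and STAT3 pathway, Lifr, Il6st, Stat3 and Socs3, was compared between 4 mouse embryonic stem cell lines by ATAC-seq. In this assay the Tn5 transposase cuts accessible DNA, and the cut ends are sequenced. The regions of each gene were found by position alone, as the rows of the deposited count table that start within a fixed window around the gene in GRCm38 (mm10). The regions found span chr15:7114767-7205824 at Lifr, chr13:112455013-112518497 at Il6st, chr11:100876540-100947931 at Stat3 and chr11:117955400-117977198 at Socs3. An upstream annotated start of Lifr lies outside its window. The windows held 56 of the 248336 regions of the table, 23 at Lifr, 14 at Il6st, 14 at Stat3 and 5 at Socs3, and all 56 passed the filter on low counts. Of these, 13 lay within 1000 bp of an annotated start site of their own gene. Exons were touched by 24 regions, 21 were intronic and 11 intergenic. The Stat3 window also holds 2 regions in exons of its neighbour Stat5a, 59.0 and 62.8 kb downstream of the Stat3 start.

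The B6 line came from C57BL/6J mice (3 libraries) and the D2 line from DBA/2J mice (3 libraries). The B6-13D2 line (2 libraries) came from the congenic strain B6.D2-(rs30079041-rs51756099)/Bakr, a B6 strain with a D2 interval of chromosome 13. The D2-13B6 line (3 libraries) came from D2.B6-(rs29224292-rs13469455)/Bakr, a D2 strain with a B6 interval of chromosome 13. Each genotype was 1 cell line, and the libraries of a line are technical replicates, so errors and p-values below measure only the spread between libraries of a line. The culture medium of all 4 lines held 15% serum, LIF, 1 µM of the MEK inhibitor PD0325901 and 3 µM of the GSK3 inhibitor CHIR99021. No group without LIF is among them. The labels name each interval by its flanking markers, which differ between the 2 congenic strains, without coordinates. Whether Il6st, itself on chromosome 13, lies inside either interval is not given in the sources used here.

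LIF is a cytokine that keeps mouse embryonic stem cells undifferentiated in culture. It binds the receptor LIFR, which pairs with gp130, the product of Il6st and the shared signalling chain of the interleukin 6 family. JAK kinases bound to the pair then phosphorylate STAT3, which enters the nucleus as a dimer and binds DNA. SOCS3, whose gene is a direct STAT3 target, binds gp130 and the kinases and shuts the signal down.

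Values are normalised CPM, the counts in a region scaled to the library total with TMM factors, and are given per kb of region where genes are compared. Total counts ran from 15198496 to 43042955 per library, with 29172484 or more in each D2-13B6 and D2 library. Several properties of the lines moved together with the results below. Promoter regions held 38.3% to 39.4% of the normalised counts in B6, 38.9% to 39.0% in B6-13D2, 41.1% to 45.5% in D2-13B6 and 42.3% to 44.9% in D2. The TMM factor of D2-13B6 replicate 2 was 0.769, the lowest of the 11, and 0.895 and 0.997 in the other libraries of that line. At promoters of the 5 embryonic stem cell markers Pou5f1, Sox2, Nanog, Zfp42 and Esrrb, the summed CPM was 202 to 213 in B6, 201 to 213 in B6-13D2, 107 to 116 in D2-13B6 and 170 to 195 in D2. All 5 were lower in D2-13B6 than in D2 by the test used below, where 8.04% of all promoter regions were, and 4 of 5 were lower than in B6, where 17.2% were. For fibroblast markers, 5 of 7 had a promoter region (Col3a1 and Lum had none, and none of the 5 was at 0 in any library), with summed CPM of 30.2 to 35.8, 27.4 to 32.4, 63.9 to 84.4 and 38.3 to 42.6 in the same order of lines. Of these 5, Col1a1, Col1a2 and Dcn were higher in D2-13B6 than in B6, where 37.4% of all promoter regions were. Thy1 and Postn were not called. The 5 primitive endoderm markers summed to 94.2 to 101, 88.5 to 98.0, 98.1 to 130 and 95.9 to 108. They did not share a direction in D2-13B6 against B6, with Gata6 and Pdgfra higher, Sox17 lower, and Gata4 and Sox7 not called. The part of these differences in the results at the 4 genes was not tested.

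The promoters are shown first, because the main results turn on them and because they differ in the letters that STAT dimers bind. Each sequence is the 250 bases before the start of transcription in RefSeq on GRCm38.p6, written 5′ to 3′ on the strand of the gene. Capitals mark the STAT motif TTCNNNGAA, which is its own reverse complement, and the GC box GGGCGG or CCGCCC, a motif added after the sequences were seen. They lie at chr15:7129322-7129571 (plus strand), chr13:112463820-112464069 (plus), chr11:100939541-100939790 (minus) and chr11:117969367-117969616 (minus).
Lifr promoter: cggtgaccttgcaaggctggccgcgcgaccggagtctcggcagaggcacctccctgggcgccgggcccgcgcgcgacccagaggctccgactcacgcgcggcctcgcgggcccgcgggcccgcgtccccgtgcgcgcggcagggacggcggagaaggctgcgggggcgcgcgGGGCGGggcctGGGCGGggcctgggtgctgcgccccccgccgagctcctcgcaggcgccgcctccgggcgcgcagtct
Il6st promoter: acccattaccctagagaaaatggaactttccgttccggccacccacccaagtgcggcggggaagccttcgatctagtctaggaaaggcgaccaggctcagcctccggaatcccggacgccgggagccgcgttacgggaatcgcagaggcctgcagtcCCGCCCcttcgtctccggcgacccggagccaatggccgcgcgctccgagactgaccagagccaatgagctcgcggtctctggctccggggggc
Stat3 promoter: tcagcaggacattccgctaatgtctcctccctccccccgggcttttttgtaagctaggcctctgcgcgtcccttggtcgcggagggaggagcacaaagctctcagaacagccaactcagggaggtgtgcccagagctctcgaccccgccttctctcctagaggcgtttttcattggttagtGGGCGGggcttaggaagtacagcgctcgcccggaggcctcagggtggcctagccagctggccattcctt
Socs3 promoter: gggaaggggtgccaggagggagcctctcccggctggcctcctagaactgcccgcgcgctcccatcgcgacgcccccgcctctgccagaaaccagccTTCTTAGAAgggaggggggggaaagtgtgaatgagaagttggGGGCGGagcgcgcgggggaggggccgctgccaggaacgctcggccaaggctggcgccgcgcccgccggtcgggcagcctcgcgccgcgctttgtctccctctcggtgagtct

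GC content was 82.4% for Lifr, 66.0% for Il6st, 60.8% for Stat3 and 71.6% for Socs3. Lifr held 2 GC boxes and the others 1 each, and 32.7% of 32851 RefSeq promoter stretches of the same length held at least 1. Among the 4, the STAT motif was found in the Socs3 stretch alone, and 7.02% of all such stretches held it. A further STAT motif of Socs3 lies just downstream of the printed stretch, in the same accessible region. For Socs3 the main start site used for distances lies downstream of the RefSeq start, and this motif lies between them. The motif is therefore upstream of the main start site, and is shown with its flanks (chr11:117969229-117969257, minus strand).
Socs3 site: ggccgggcagTTCCAGGAAtcggggggcg

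Over whole regions, the motif was counted 16 times in 7 of the 56 regions. The 5 Socs3 regions held 10, or 8.57 per 10 kb of accessible sequence, against 3.22 per 10 kb over all regions of the table. Lifr had 4 motifs (2.06 per 10 kb), Stat3 had 2 (2.44 per 10 kb) and Il6st had none. Of the Lifr motifs, 3 lie together in a wide intronic region 13.4 kb upstream of the main start site, shown here for chr15:7115487-7115722 on the plus strand because they are the densest group in the receptor genes.
Lifr intron sites: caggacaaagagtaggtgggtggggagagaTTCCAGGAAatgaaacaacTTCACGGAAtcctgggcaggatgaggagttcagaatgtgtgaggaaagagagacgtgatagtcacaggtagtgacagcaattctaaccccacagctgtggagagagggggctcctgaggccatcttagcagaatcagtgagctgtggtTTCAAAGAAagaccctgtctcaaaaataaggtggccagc
A match describes letters only, and STAT3 binding was not measured.

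The promoter regions of Stat3 and Socs3 were among the most accessible in the table. The mean over the 4 lines was 24.2 CPM per kb at the Stat3 promoter region, above 99.4% of the 38070 promoter regions tested. It was 14.5 CPM per kb at Socs3 (above 93.5%), 9.22 at Il6st (above 76.4%) and 7.44 at Lifr (above 65.4%). Of the other regions, the most accessible per kb lay 3.4 kb inside Lifr (11.6 CPM per kb), 5.2 kb downstream of the Socs3 start (10.8) and 6.5 kb upstream of it (10.6).

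All 4 promoter regions were higher in D2-13B6 than in B6, where 37.4% of all promoter regions were higher, and none differed detectably between B6-13D2 and B6. Among promoter regions of the same chromosome and a similar mean log2 CPM per region (556 to 1271 regions per gene), the median log2 fold change of D2-13B6 against B6 was 0.52 to 0.75, and Stat3 lay above 85.3%, Lifr above 70.4%, Socs3 above 59.7% and Il6st above 41.5% of them. Lifr and Stat3 were also higher in D2 than in B6. These comparisons share the B6 libraries and are not independent of each other. The plot of promoter levels by library shows these values, and a region is called different where its p-value, adjusted over all 246840 tested regions, is under 0.05.

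**Figure D1:**
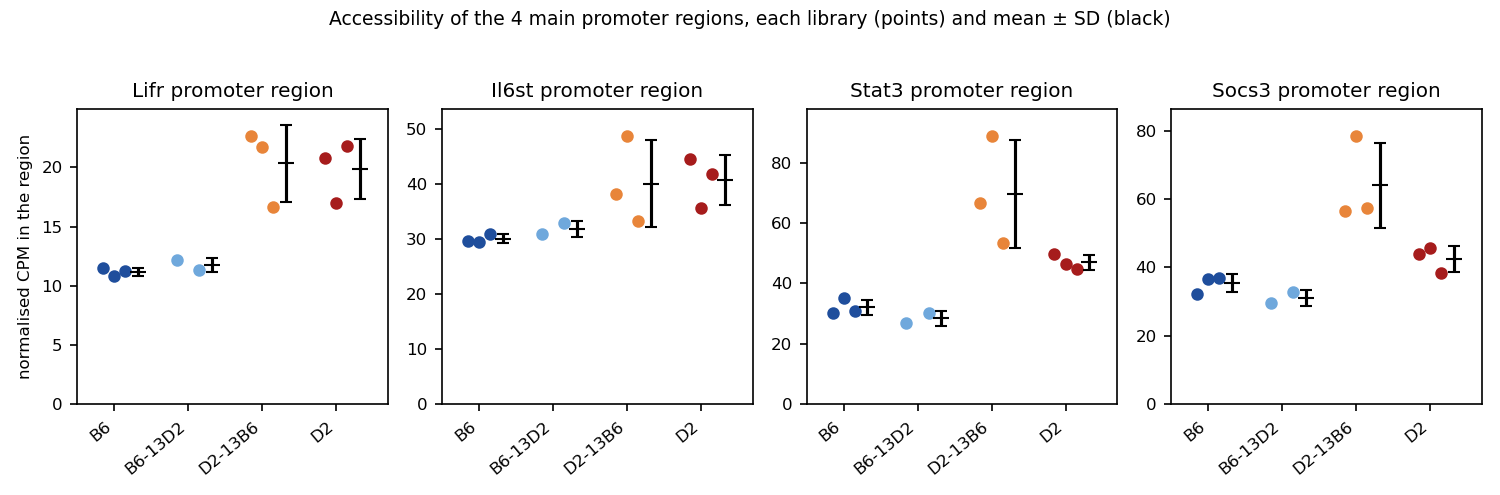
Normalised CPM in the main promoter region of Lifr, Il6st, Stat3 and Socs3 (vertical axis, from 0) for each library of the 4 lines (points), with mean ± SD beside them in black. B6 and B6-13D2 lie at the same level in each panel, and D2-13B6 replicate 2 is the highest library for Il6st, Stat3 and Socs3.

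Lifr encodes the LIF-binding chain of the receptor. Its main promoter region (chr15:7128449-7130571) had 11.5, 10.8 and 11.2 CPM in the B6 libraries and 12.1 and 11.4 in B6-13D2. It had 22.6, 21.8 and 16.6 in D2-13B6 and 20.8, 17.0 and 21.8 in D2. Every library of the lines with D2 background lay above every library of the lines with B6 background. The log2 fold change was 0.83 ± 0.17 (SE, adjusted p = 0.000121) for D2 against B6 and 0.86 ± 0.17 (adjusted p = 1.88e-05) for D2-13B6 against B6. Both calls held under all 18 alternative settings. For D2 against B6-13D2 it was 0.76 ± 0.19 (adjusted p = 0.00254), and 0.71 (adjusted p = 0.0726) without B6-13D2 replicate 2. D2 and D2-13B6 overlapped, with a difference of -0.04 ± 0.16 (adjusted p = 0.907). The median of the 1458 promoter regions of chromosome 15 was 0.14 for D2 against B6, where 94.7% of them lay below Lifr, and 0.21 for D2-13B6 against B6, where 79.5% did.

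Il6st encodes gp130. Its main promoter region (chr13:112460915-112464783) had 29.7, 29.5 and 30.9 CPM in B6, 30.8 and 32.9 in B6-13D2, 38.2, 48.7 and 33.2 in D2-13B6, and 44.6, 35.6 and 41.9 in D2. The D2 and D2-13B6 libraries lay above all B6 and B6-13D2 libraries, by less than at Lifr. For D2-13B6 against B6 the log2 fold change was 0.41 ± 0.17 (adjusted p = 0.0404). Leaving out any 1 of 9 libraries ended this call, namely each B6 and B6-13D2 library, D2 replicates 1 and 3, and D2-13B6 replicates 1 and 2. Without D2-13B6 replicate 2 the value was 0.25 (adjusted p = 0.177). The call was also lost with total counts, which gave the lowest value (0.10, adjusted p = 0.441), and with only the libraries compared (0.49, adjusted p = 0.0709). For D2 against B6 it was 0.44 ± 0.17 (adjusted p = 0.0501), which missed the threshold, and it was called in 6 of 18 alternatives, among them without D2 replicate 2 (0.59, adjusted p = 0.00488) and without D2-13B6 replicate 2 or 3 (0.44, adjusted p = 0.00695 and 0.00363). Chromosome 13 as a whole was lower in D2-13B6, with a median log2 fold change against B6 of -0.50 over its 11873 tested regions and -0.15 over its 1613 promoter regions. With TMM factors computed within each chromosome, which removes such a shift, the Il6st promoter region stood at 0.83 ± 0.17 for D2-13B6 against B6 (adjusted p = 4.02e-05). D2 against D2-13B6 was 0.02 ± 0.17 (adjusted p = 0.944) over all regions and -0.40 ± 0.17 (adjusted p = 0.0713) within chromosomes.

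Stat3 encodes the transcription factor itself. Its main promoter region (chr11:100938559-100940390) had 30.1, 34.99 and 31.0 CPM in B6 and 26.7 and 30.1 in B6-13D2. It had 49.7, 46.3 and 44.9 in D2 and 66.5, 88.8 and 53.4 in D2-13B6. The 3 levels did not overlap, with D2 between the lines of B6 background and D2-13B6. D2-13B6 exceeded B6 by a log2 fold change of 1.12 ± 0.17 (adjusted p = 1.38e-07), which stayed called in all 18 alternatives. D2 against B6 gave 0.55 ± 0.17 (adjusted p = 0.0131). That call was lost without B6 replicate 1 (0.51, adjusted p = 0.0846), without B6 replicate 3 (0.53, adjusted p = 0.0685) and without D2 replicate 1 (0.51, adjusted p = 0.0676). D2 against B6-13D2 gave 0.72 ± 0.20 (adjusted p = 0.00493), and 0.64 (adjusted p = 0.129) without B6-13D2 replicate 1.

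Socs3 encodes the feedback inhibitor. Its promoter region (chr11:117967783-117970771), which touches the coding exon, had 32.3, 36.6 and 37.0 CPM in B6, 29.5 and 32.8 in B6-13D2, 56.4, 78.4 and 57.4 in D2-13B6, and 43.8, 45.6 and 38.2 in D2. The D2-13B6 libraries lay above all others, and the D2 libraries lay above those of B6 and B6-13D2. The log2 fold change was 0.86 ± 0.17 for D2-13B6 against B6 (adjusted p = 2.04e-05), called in all 18 alternatives. It was 0.27 ± 0.17 for D2 against B6 (adjusted p = 0.273), which did not pass, and was called with only the libraries compared (0.27, adjusted p = 0.0493).

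Between the lines that share the D2 background, Stat3 and Socs3 were lower in D2 than in D2-13B6, but so was chromosome 11 as a whole. The log2 fold change was -0.57 ± 0.17 at the Stat3 promoter region (adjusted p = 0.00878) and -0.59 ± 0.17 at Socs3 (adjusted p = 0.00531). The median of the 2692 promoter regions of chromosome 11 was -0.34, and 20.6% of them had a lower value than Stat3 and 18.8% a lower value than Socs3. With TMM within chromosomes the values were -0.28 ± 0.17 (adjusted p = 0.26) and -0.30 ± 0.16 (adjusted p = 0.2), and neither was called. The Stat3 call was also lost without D2 replicate 3 (-0.54, adjusted p = 0.0521), without D2-13B6 replicate 2 (-0.35, adjusted p = 0.0677) and with only the libraries compared (-0.59, adjusted p = 0.0612), and the Socs3 call without D2 replicate 3 (-0.52, adjusted p = 0.0551). Against B6, in contrast, both genes remained called within chromosomes, at 0.87 ± 0.17 for Stat3 (adjusted p = 2.64e-05) and 0.60 ± 0.17 for Socs3 (adjusted p = 0.00227).

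**Figure D2:**
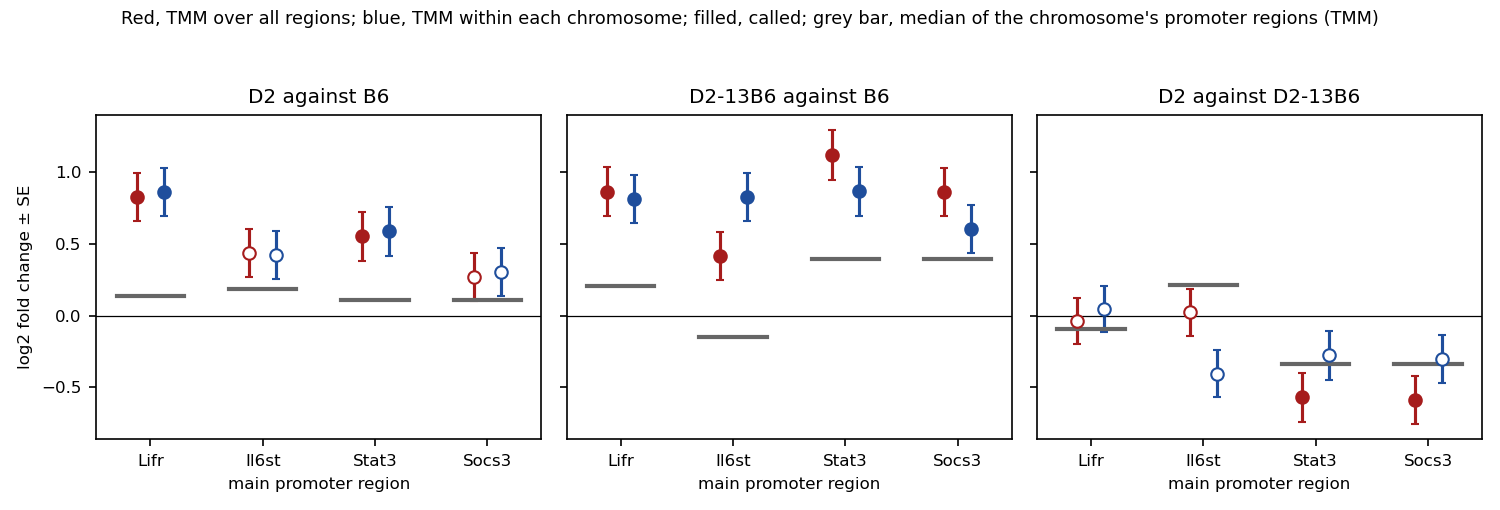
Log2 fold change ± SE of the main promoter regions in 3 comparisons, with TMM over all regions (red) and within each chromosome (blue), filled where the adjusted p-value is under 0.05; grey bars mark the median of the promoter regions of the same chromosome with TMM over all regions, to be set against the red points. In D2 against D2-13B6, Stat3 and Socs3 move from -0.57 and -0.59 to -0.28 and -0.30 and lose their calls.

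Across all 56 regions, calls at the 4 genes are read against the share called in the whole table. D2 against B6 gave 6 called regions (5 higher, 1 lower), where 22.5% of all tested regions were called. D2 against B6-13D2 gave 8 (6 higher, 2 lower), with 18.8% called over all regions, and 3 without either B6-13D2 replicate. D2-13B6 against B6 gave 27 (11 higher, 16 lower), with 41.7% over all regions (21.6% higher, 20.1% lower). D2 against D2-13B6 gave 21 (11 higher, 10 lower), with 23.7% over all regions (8.53% higher, 15.2% lower). The last count was 13 without D2 replicate 1, where 18.1% of all regions were called. With total counts in place of TMM, D2-13B6 against B6 split into 10 higher and 24 lower. Over all regions, 51.5% were then called and the median log2 fold change was -0.428. D2 against D2-13B6 split into 15 and 9, with 27.8% called and a median of 0.205 over all regions. With TMM within chromosomes these splits were 12 and 11 (40.2% of all regions called) and 11 and 6 (22.5% called). With size factors by relative log expression the latter was 7 and 10 (22.8% called). At least 1 comparison called 31 of the 56 regions, and 25 were called in none. The matching share over all regions is not given here, and D2-13B6 against B6 by itself called 41.7% of them. The median log2 fold change over the 56 regions was -0.31 for D2-13B6 against B6, beside -0.13 over all regions, and -0.04 for D2 against B6, beside -0.01.

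No region of the 4 genes differed detectably between B6-13D2 and B6. B6-13D2 against B6 called 0 of 56 regions, where 0.474% of all regions were called by edgeR, and DESeq2 called 0 as well. At an unadjusted p under 0.05 there were 2 regions by either tool. The promoter regions differed by 0.07 ± 0.19 at Lifr, 0.08 ± 0.19 at Il6st, -0.17 ± 0.20 at Stat3 and -0.18 ± 0.19 at Socs3 (log2 fold change ± SE). With 2 libraries in B6-13D2, differences of this size were not detectable. The difference B6-13D2 minus B6 was not the same as D2 minus D2-13B6 in 5 of the 56 regions, 2 at Lifr and 3 at Il6st. Over all regions, 6.54% were called by this interaction test. With TMM within chromosomes it called 2 of the 56, both at Lifr (6.63% over all regions). The 2 congenic strains have different flanking markers, and each genotype was 1 cell line. An effect of the interval therefore cannot be told apart from other differences between the lines.

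**Figure D3:**
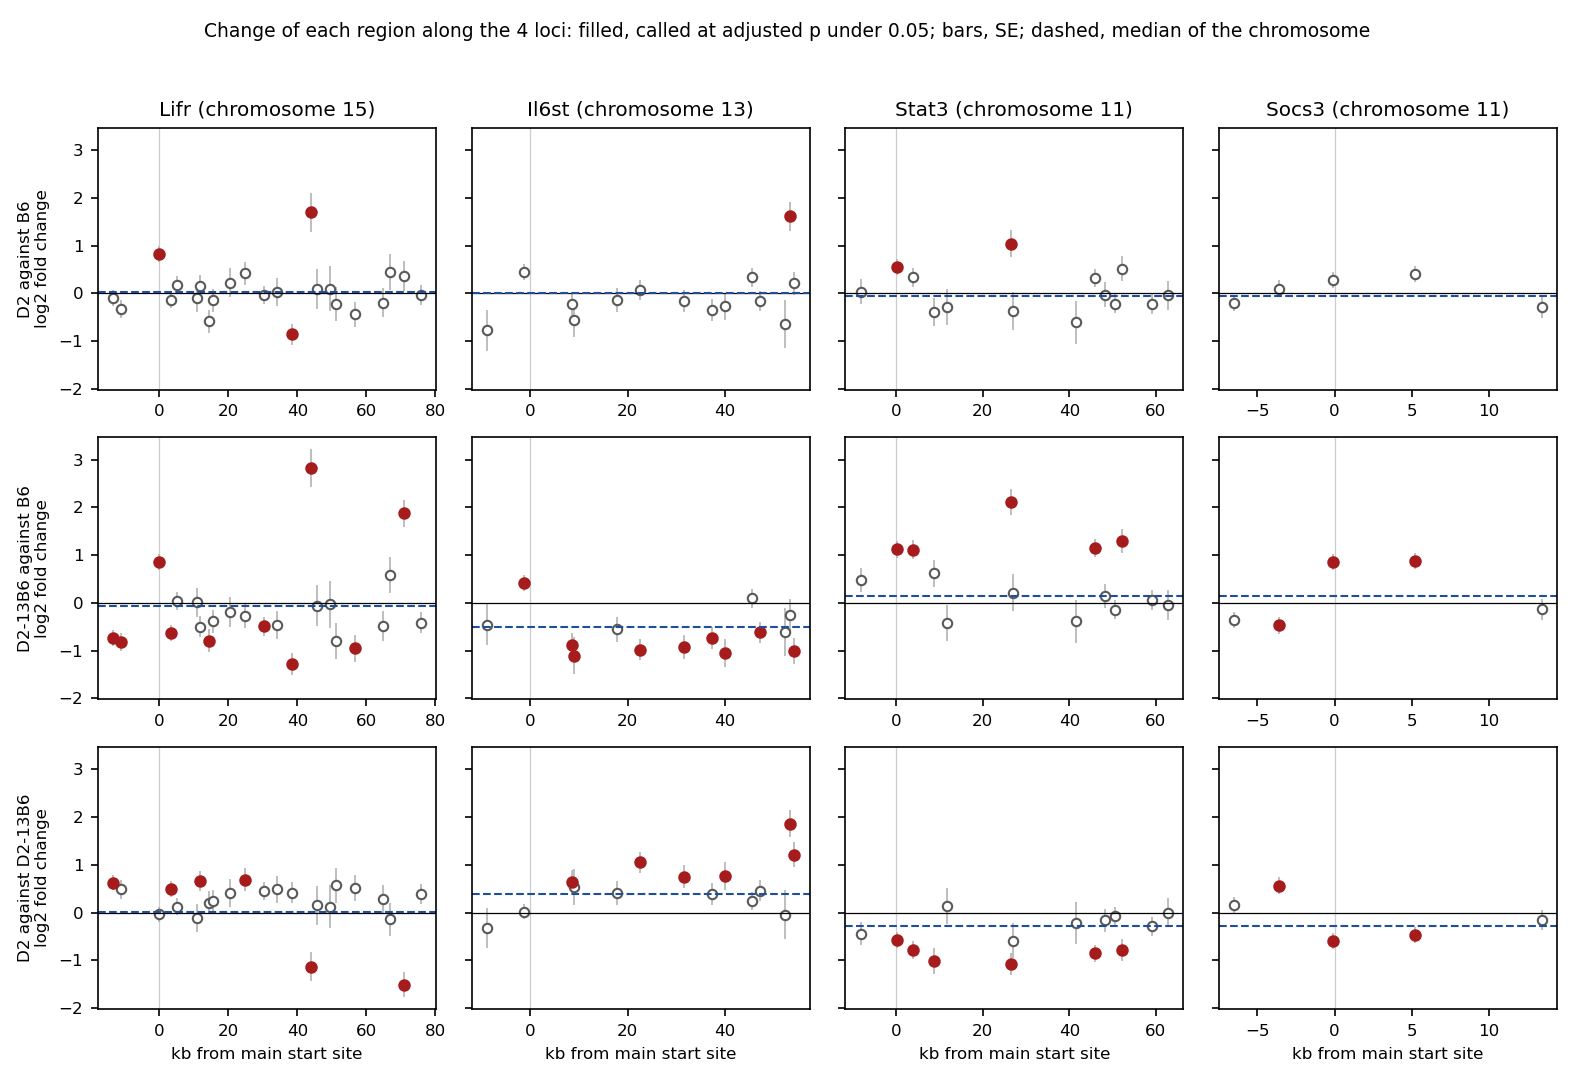
Log2 fold change ± SE of each of the 56 regions against its distance from the main start site of the gene (kb, positive downstream), for 3 comparisons in rows and the 4 loci in columns; filled points are called, and the dashed line is the median of the chromosome. In D2-13B6 against B6, Il6st points lie on both sides of the chromosome 13 median of -0.50, around a locus median of -0.68, while Stat3 points reach 2.11.

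Away from the promoter, the Lifr locus was mixed, with regions that opened and regions that closed in the same line. In D2-13B6 against B6, 3 of its 23 regions, the promoter region among them, were higher and 7 lower. Of all chromosome 15 regions, 24.1% were higher and 17.8% lower. With TMM within chromosomes, 3 were higher and 8 lower, where 40.2% of all regions were called (22.2% higher, 18.1% lower). The wide intronic region with 3 STAT motifs, 13.4 kb upstream of the main start (chr15:7114767-7117597), had 15.9, 17.1 and 14.9 CPM in B6, 17.9 and 16.7 in B6-13D2, 10.6, 9.45 and 8.70 in D2-13B6, and 14.5, 14.5 and 15.7 in D2. It was low in the D2-13B6 libraries alone, opposite to the promoter, which was high there. The log2 fold change was -0.73 ± 0.17 for D2-13B6 against B6 (adjusted p = 0.00019). It was 0.63 ± 0.16 when D2 was set against D2-13B6 (adjusted p = 0.00209), and both were called in all 18 alternatives. The most accessible Lifr region per kb, 3.4 kb downstream of the start (chr15:7132522-7133409), behaved alike, at -0.62 ± 0.17 (adjusted p = 0.00211, called in all alternatives) and 0.49 ± 0.17 (adjusted p = 0.0242). The latter was lost without D2 replicate 1 (0.40, adjusted p = 0.157) and without D2-13B6 replicate 1 (0.48, adjusted p = 0.069), and also with size factors by relative log expression (adjusted p = 0.0835), with DESeq2 (adjusted p = 0.0632) and with only the libraries compared (adjusted p = 0.0977).

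An intronic Lifr region 38.3 kb downstream (chr15:7167304-7168346) was the only region of the 4 genes called lower in D2 than in B6 (31 of 56 had a value under 0). Of all regions, 8.8% were lower. With total counts 3 regions were called lower, and with only the libraries compared 2. In these settings 24.5% and 27.2% of all regions were called in either direction. The region at 38.3 kb had 3.89, 5.61 and 4.33 CPM in B6, 3.32 and 4.88 in B6-13D2, 1.403, 1.79 and 2.51 in D2-13B6, and 2.75, 2.54 and 2.23 in D2. All libraries with D2 background lay under all those with B6 background. Log2 fold changes were -0.86 ± 0.22 for D2 against B6 (adjusted p = 0.0019) and -1.28 ± 0.23 for D2-13B6 against B6 (adjusted p = 2.6e-06), and both held in all 18 alternatives.

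The largest increases at Lifr were in 2 narrow regions. The region 44.0 kb downstream (chr15:7173429-7173645, in a coding exon) had 0.333, 0.122 and 0.306 CPM in B6, from counts as low as 2, and 0.5003 and 0.498 in B6-13D2. It had 1.04, 0.723 and 0.888 in D2 and 1.30, 2.70 and 1.86 in D2-13B6. The 4 lines formed 4 levels without overlap, with B6 the lowest and D2-13B6 the highest. Fold changes on the log2 scale were 2.83 ± 0.39 for D2-13B6 against B6 (adjusted p = 8.41e-09) and 1.69 ± 0.42 for D2 against B6 (adjusted p = 0.00147). D2 against D2-13B6 gave -1.13 ± 0.31 (adjusted p = 0.00343), and -0.82 (adjusted p = 0.0946) without D2-13B6 replicate 2.

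The region 71.0 kb downstream (chr15:7200478-7200710) lies past the end of Lifr in intergenic sequence. It had 2.86, 3.696 and 2.65 CPM in D2-13B6, against 1.03, 0.488 and 0.875 in B6, 0.591 and 1.096 in B6-13D2, and 0.908, 1.23 and 1.09 in D2. It stood apart in D2-13B6 alone. Against B6 its log2 fold change was 1.88 ± 0.29 (adjusted p = 1.07e-07), and D2 against D2-13B6 was -1.51 ± 0.26 (adjusted p = 4.92e-06). Both were called in all 18 alternatives. Its centre, shown for that reason (chr15:7200445-7200744, plus strand), holds 2 copies of the AP-1 motif TGACTCA or TGAGTCA, in capitals, a motif searched after the sequence was seen. At least 1 copy was present in 9.96% of the 300-base centres of all regions.
Lifr downstream region: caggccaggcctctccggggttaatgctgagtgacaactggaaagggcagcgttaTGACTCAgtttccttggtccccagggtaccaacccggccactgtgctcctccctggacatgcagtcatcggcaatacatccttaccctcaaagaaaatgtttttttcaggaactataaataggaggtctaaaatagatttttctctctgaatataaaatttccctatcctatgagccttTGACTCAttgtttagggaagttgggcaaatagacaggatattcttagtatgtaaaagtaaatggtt

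The regions at further annotated Lifr start sites were weakly accessible. Those 10.9, 11.8 and 24.7 kb downstream had 2.25, 3.82 and 2.84 CPM per kb on average. The region at 10.9 kb was called in no comparison. Those at 11.8 and 24.7 kb were higher in D2 than in D2-13B6, by 0.66 ± 0.21 (adjusted p = 0.015) and 0.69 ± 0.24 (adjusted p = 0.0251). Without D2 replicate 1 these were 0.60 (adjusted p = 0.0752) and 0.70 (adjusted p = 0.0614), without D2-13B6 replicate 1 they were 0.64 (adjusted p = 0.0541) and 0.73 (adjusted p = 0.0507), and the second was also lost without D2 replicate 2 or D2-13B6 replicate 2 (0.66 and 0.58, adjusted p = 0.0668 and 0.106). The second call was lost as well with size factors by relative log expression (adjusted p = 0.05) and with DESeq2 (adjusted p = 0.0698).

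At Il6st, most calls in D2-13B6 were lost when read against the chromosome. Against B6, 9 of 14 regions were called, of which 8 were lower and the promoter region higher, where 36.6% of all chromosome 13 regions were lower and 18.5% higher. The median over the locus was -0.68. With TMM within chromosomes, 3 were called, where 40.2% of all regions were called (22.2% higher, 18.1% lower). The 3 were the promoter region and, named after its value was seen, the region 45.6 kb downstream at the end of the gene, both higher, and the intronic region 22.6 kb downstream, lower. That intronic region (chr13:112486183-112487250) had 3.53, 4.82 and 3.28 CPM in B6, 3.77 and 3.19 in B6-13D2, 1.403, 2.30 and 2.17 in D2-13B6, and 3.42, 5.01 and 3.67 in D2. Only the D2-13B6 libraries were low. D2 against D2-13B6 was 1.05 ± 0.22 (adjusted p = 0.000103), beside a chromosome 13 median of 0.39, and 0.63 ± 0.22 (adjusted p = 0.0246) within chromosomes.

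The regions at further Il6st start sites, 8.5 kb (chr13:112472203-112472955) and 9.0 kb downstream (chr13:112473020-112473182), were lower in D2-13B6 than in B6, by -0.88 ± 0.25 (adjusted p = 0.00351) and -1.10 ± 0.38 (adjusted p = 0.0147). Within chromosomes they were at -0.46 (adjusted p = 0.141) and -0.69 (adjusted p = 0.142), and neither was called. The second was also lost without B6 replicate 2 (-0.85, adjusted p = 0.107) and without D2-13B6 replicate 2 (-0.99, adjusted p = 0.0543).

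Downstream of Il6st, 1 region was higher in D2 than in the other 3 lines. The region at 53.3 kb (chr13:112517074-112517684) lies in intergenic sequence, of which 75.6% is soft-masked as repeat. It had 2.85, 2.22 and 3.38 CPM in D2, against 0.865, 1.16 and 0.788 in B6, 1.501 and 0.897 in B6-13D2, and 0.468, 0.697 and 1.20 in D2-13B6. All D2 libraries lay above all others, and the other 3 lines overlapped. D2 against B6 was 1.61 ± 0.30 (adjusted p = 2.16e-05) and D2 against D2-13B6 was 1.86 ± 0.29 (adjusted p = 5.02e-07), or 1.45 ± 0.28 (adjusted p = 5.16e-05) within chromosomes. D2 against B6-13D2 was 1.22 ± 0.33 (adjusted p = 0.00465), and 0.91 (adjusted p = 0.16) without B6-13D2 replicate 2. The first 2 of these were called in all 18 alternatives. Its centre (chr13:112517230-112517529, plus strand) is shown because it had the largest log2 fold change between D2 and B6 among the Il6st regions. It holds 2 copies of the octamer ATTTGCAT, in capitals, which POU factors such as OCT4 bind and which was searched after the sequence was seen. On either strand the octamer was in 3.23% of the centres of all regions.
Il6st downstream region: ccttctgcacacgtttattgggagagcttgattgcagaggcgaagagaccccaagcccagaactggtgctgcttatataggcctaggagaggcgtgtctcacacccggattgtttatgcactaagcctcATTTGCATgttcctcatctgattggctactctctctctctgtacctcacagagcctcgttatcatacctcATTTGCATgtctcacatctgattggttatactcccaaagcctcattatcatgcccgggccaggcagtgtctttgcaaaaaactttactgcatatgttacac
Its neighbour at 54.2 kb (chr13:112518001-112518497) was low in D2-13B6 instead, with 0.831, 1.09 and 0.963 CPM against 2.26, 2.41 and 2.00 in D2, 1.93, 1.46 and 2.32 in B6 and 1.68 and 1.45 in B6-13D2. D2 against D2-13B6 was 1.21 ± 0.26 (adjusted p = 0.000169), and 0.79 ± 0.26 (adjusted p = 0.0179) within chromosomes. D2-13B6 against B6 was -1.004 ± 0.27 (adjusted p = 0.00179), and -0.59 (adjusted p = 0.0738) within chromosomes.

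At Stat3, 5 of 14 regions were higher in D2-13B6 than in B6 and none lower, with and without the correction for the chromosome. Before the correction, 27.6% of all chromosome 11 regions were higher and 7.96% lower. With it, 22.2% of all tested regions were higher and 18.1% lower. The largest change was in an intron 26.6 kb downstream of the start (chr11:100912758-100913169). It had 4.52, 6.00 and 4.99 CPM in D2-13B6 and 2.54, 2.25 and 2.58 in D2, against 0.499, 1.83 and 1.49 in B6 and 0.637 and 1.495 in B6-13D2. As at the promoter, D2 lay between the lines with B6 background and D2-13B6 with no overlap. D2-13B6 against B6 was 2.11 ± 0.27 (adjusted p = 6.46e-10), and 1.85 ± 0.27 (adjusted p = 4.43e-08) within chromosomes. D2 against D2-13B6 was -1.07 ± 0.23 (adjusted p = 0.000209), beside a chromosome 11 median of -0.27, and -0.78 ± 0.23 (adjusted p = 0.00947) within chromosomes. D2 against B6 was 1.04 ± 0.28 (adjusted p = 0.00349), and 0.58 (adjusted p = 0.167) without B6 replicate 1. Its centre (chr11:100912814-100913113, minus strand) is printed as the Stat3 stretch with the clearest order of the lines. It holds none of the STAT, octamer or AP-1 motifs.
Stat3 intron region: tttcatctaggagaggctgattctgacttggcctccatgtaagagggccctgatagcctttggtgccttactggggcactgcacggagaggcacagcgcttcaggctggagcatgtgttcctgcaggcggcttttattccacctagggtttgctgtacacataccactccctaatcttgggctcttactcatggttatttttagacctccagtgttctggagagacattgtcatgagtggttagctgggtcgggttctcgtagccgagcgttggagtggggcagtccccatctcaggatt

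Of the 4 regions at annotated start sites inside Stat3, the one 46.0 kb downstream (chr11:100893084-100893977) had the order of lines of the main promoter. It had 4.06, 4.02 and 4.90 CPM in B6, 3.68 and 3.59 in B6-13D2, 10.6, 11.6 and 6.81 in D2-13B6, and 5.71, 5.11 and 5.33 in D2. D2-13B6 was the highest line without overlap. D2-13B6 against B6 was 1.16 ± 0.19 (adjusted p = 4e-07), and D2 against D2-13B6 was -0.85 ± 0.18 (adjusted p = 0.000143), or -0.56 ± 0.18 (adjusted p = 0.0157) within chromosomes. Unlike at the main promoter, D2 against B6 (0.31, adjusted p = 0.26) and D2 against B6-13D2 (0.57, adjusted p = 0.0645) were not called. The latter stayed uncalled in 13 of 18 alternatives. The other 3, at 41.5, 48.2 and 50.5 kb, were called in no comparison, with log2 fold changes of -0.39 ± 0.45, 0.14 ± 0.25 and -0.14 ± 0.20 for D2-13B6 against B6.

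At Socs3, the region on either side of the gene moved apart. The wide region 5.2 kb downstream (chr11:117961953-117966079), which ends on the last annotated base of Socs3 and holds 5 STAT motifs, had 33.5, 33.2 and 35.2 CPM in B6, 34.4 and 37.8 in B6-13D2, 59.6, 75.0 and 53.1 in D2-13B6, and 48.0, 44.5 and 42.9 in D2. It had the order of lines of the Socs3 promoter, with D2-13B6 highest and D2 between it and the lines of B6 background. D2-13B6 against B6 was 0.88 ± 0.17 (adjusted p = 1.1e-05), and 0.63 ± 0.17 (adjusted p = 0.00148) within chromosomes. D2 against D2-13B6 was -0.47 ± 0.17 (adjusted p = 0.0279). This was -0.18 (adjusted p = 0.484) within chromosomes and was also lost without each D2 replicate (-0.52, -0.40 and -0.44, adjusted p = 0.0564, 0.074 and 0.115), without D2-13B6 replicate 2 (-0.32, adjusted p = 0.0981) and with only the libraries compared (-0.49, adjusted p = 0.131).

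The region 3.6 kb upstream of Socs3 (chr11:117972305-117973204) ran the other way. It had 6.49, 7.93 and 5.82 CPM in B6, 6.41 and 8.07 in B6-13D2, 4.29, 5.36 and 4.92 in D2-13B6, and 8.20, 7.42 and 5.93 in D2. D2-13B6 was the lowest line without overlap. Relative to chromosome 11, which was higher in that line, the difference grew. D2 against D2-13B6 was 0.57 ± 0.18 (adjusted p = 0.0131) and 0.85 ± 0.18 (adjusted p = 0.000109) within chromosomes. The first value was lost without D2 replicate 1 (0.46, adjusted p = 0.114) and without D2-13B6 replicate 1 (0.48, adjusted p = 0.0813). D2-13B6 against B6 was -0.47 ± 0.18 (adjusted p = 0.0345), lost without B6 replicate 1 (-0.49, adjusted p = 0.0646), B6 replicate 2 (-0.35, adjusted p = 0.191) or D2-13B6 replicate 1 (-0.38, adjusted p = 0.143). That call was also lost with size factors by relative log expression (adjusted p = 0.0936), DESeq2 (adjusted p = 0.106) and only the libraries compared (adjusted p = 0.125). Within chromosomes it was -0.72 ± 0.18 (adjusted p = 0.00079).

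**Figure D4:**
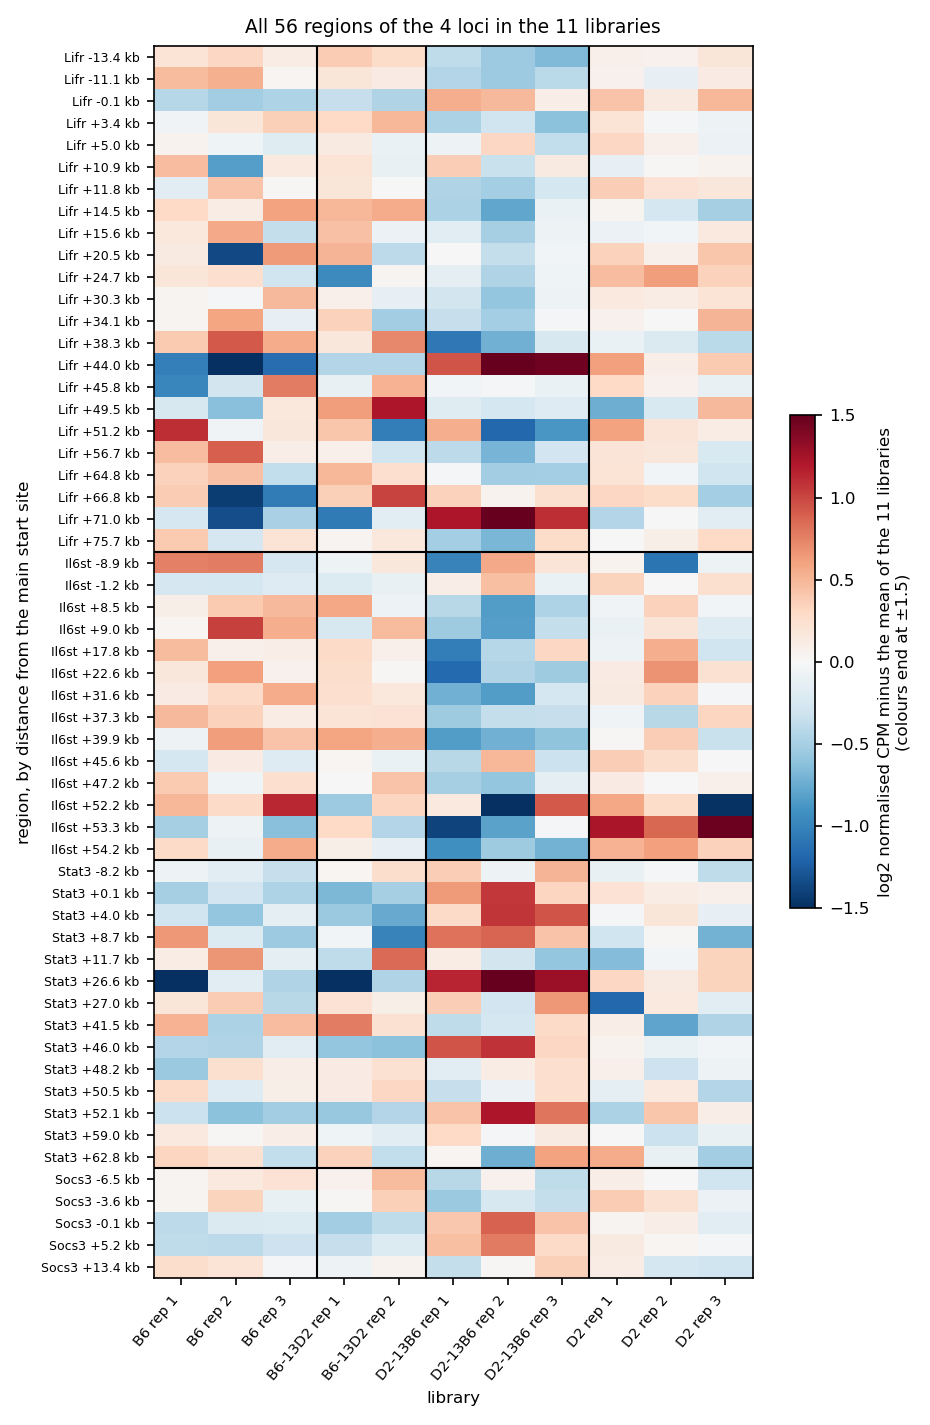
Log2 normalised CPM of all 56 regions (rows, by gene and distance from the main start site) in the 11 libraries (columns), minus the mean of each row, with colours ending at ±1.5. The Lifr promoter row and the rows 44.0 and 71.0 kb downstream are high in D2-13B6 while most other Lifr rows are low there, and the row 53.3 kb downstream of the Il6st start is high in D2 alone.

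Summed over all its regions, each locus differed less between D2-13B6 and B6 than its promoter region did. The log2 ratio of D2-13B6 to B6 was -0.17 ± 0.06 at Lifr, -0.01 ± 0.21 at Il6st, 0.93 ± 0.26 at Stat3 and 0.50 ± 0.25 at Socs3 (SD, n = 3, no test). The sum at Lifr was 83.2 ± 1.06 CPM for B6 (SD, n = 3), 85.7 ± 1.1 for B6-13D2 (n = 2), 73.9 ± 2.92 for D2-13B6 (n = 3) and 87.5 ± 4.23 for D2 (n = 3). Stat3 summed to 59.1 ± 1.86, 54.3 ± 2.83, 113 ± 20.5 and 75.8 ± 3.47 in the same order. Il6st summed to 59.2 ± 1.26, 59.7 ± 0.148, 59.2 ± 8.76 and 70.2 ± 3.52, and Socs3 to 112 ± 5.07, 114 ± 13.5, 160 ± 28.8 and 126 ± 11.1. The shift of a chromosome in a library was its median log2 difference from D2, less that of the other autosomes without chromosomes 11 and 13. In D2-13B6 these shifts were 0.30 ± 0.01 on chromosome 11, -0.31 ± 0.04 on chromosome 13 and 0.03 ± 0.02 on chromosome 15 (SD, n = 3). After subtracting them, the log2 ratio of D2-13B6 to D2 was -0.28 ± 0.05 at Lifr, with all 3 libraries between -0.32 and -0.22. It was 0.05 ± 0.19 at Il6st and 0.03 ± 0.25 at Socs3, within the spread of the libraries. At Stat3 it was 0.27 ± 0.25, with values of 0.19, 0.55 and 0.06 in replicates 1, 2 and 3. In bulk libraries, fewer cells with an open region and less opening per cell cannot be told apart.

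The promoters of 37 further genes of the pathway, from 6 lists of ligands, receptors, kinases, STATs, inhibitors and targets, were called higher more often than lower in D2 and in D2-13B6 against B6, as were promoter regions in general. Single genes below were named after their values were seen. In D2 against B6, 17 of 37 promoter regions were higher and none lower, where 31.4% of all promoter regions were called and 24.8% were higher. This count fell to 9 without B6 replicate 1 or D2 replicate 1 and to 10 without B6 replicate 2 or 3, and was 26 with only the libraries compared. In D2-13B6 against B6, 26 were higher and 2 lower, where 54.6% of all promoter regions were called, 37.4% higher and 17.2% lower. With total counts as the scaling they were 23 and 5. The median log2 fold change over the 37 was 0.80, beside 0.15 over all promoter regions, and in D2 against B6 it was 0.41, beside 0.16. Regions matched by chromosome and mean log2 CPM were taken for Lifr, Il6st, Stat3 and Socs3 alone. The medians of these matched regions were 0.52 to 0.75 in D2-13B6 against B6 and 0.33 to 0.46 in D2 against B6. The 37 were not matched in this way, so a gain beyond promoter regions of similar level was not tested. In D2 against D2-13B6, 13 were lower and 1 higher, where 15.8% and 8.04% of all promoter regions were, and 22 were lower without D2-13B6 replicate 3. With total counts 13 were lower and 5 higher. B6-13D2 against B6 called none of the 37 with edgeR (0.263% of all promoter regions were called), none reached an unadjusted p under 0.05 by either tool, and DESeq2 called none. D2 against B6-13D2 called 15 higher and none lower, where 19.9% of all promoter regions were higher, and this fell to 6 without either B6-13D2 replicate and to 9 without D2 replicate 1, and was 23 with only the libraries compared. The interaction called none by edgeR (4.89% of all promoter regions), with 9 at an unadjusted p under 0.05, 2 by DESeq2, and 11 higher and 1 lower by edgeR without D2-13B6 replicate 3.

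**Figure D5:**
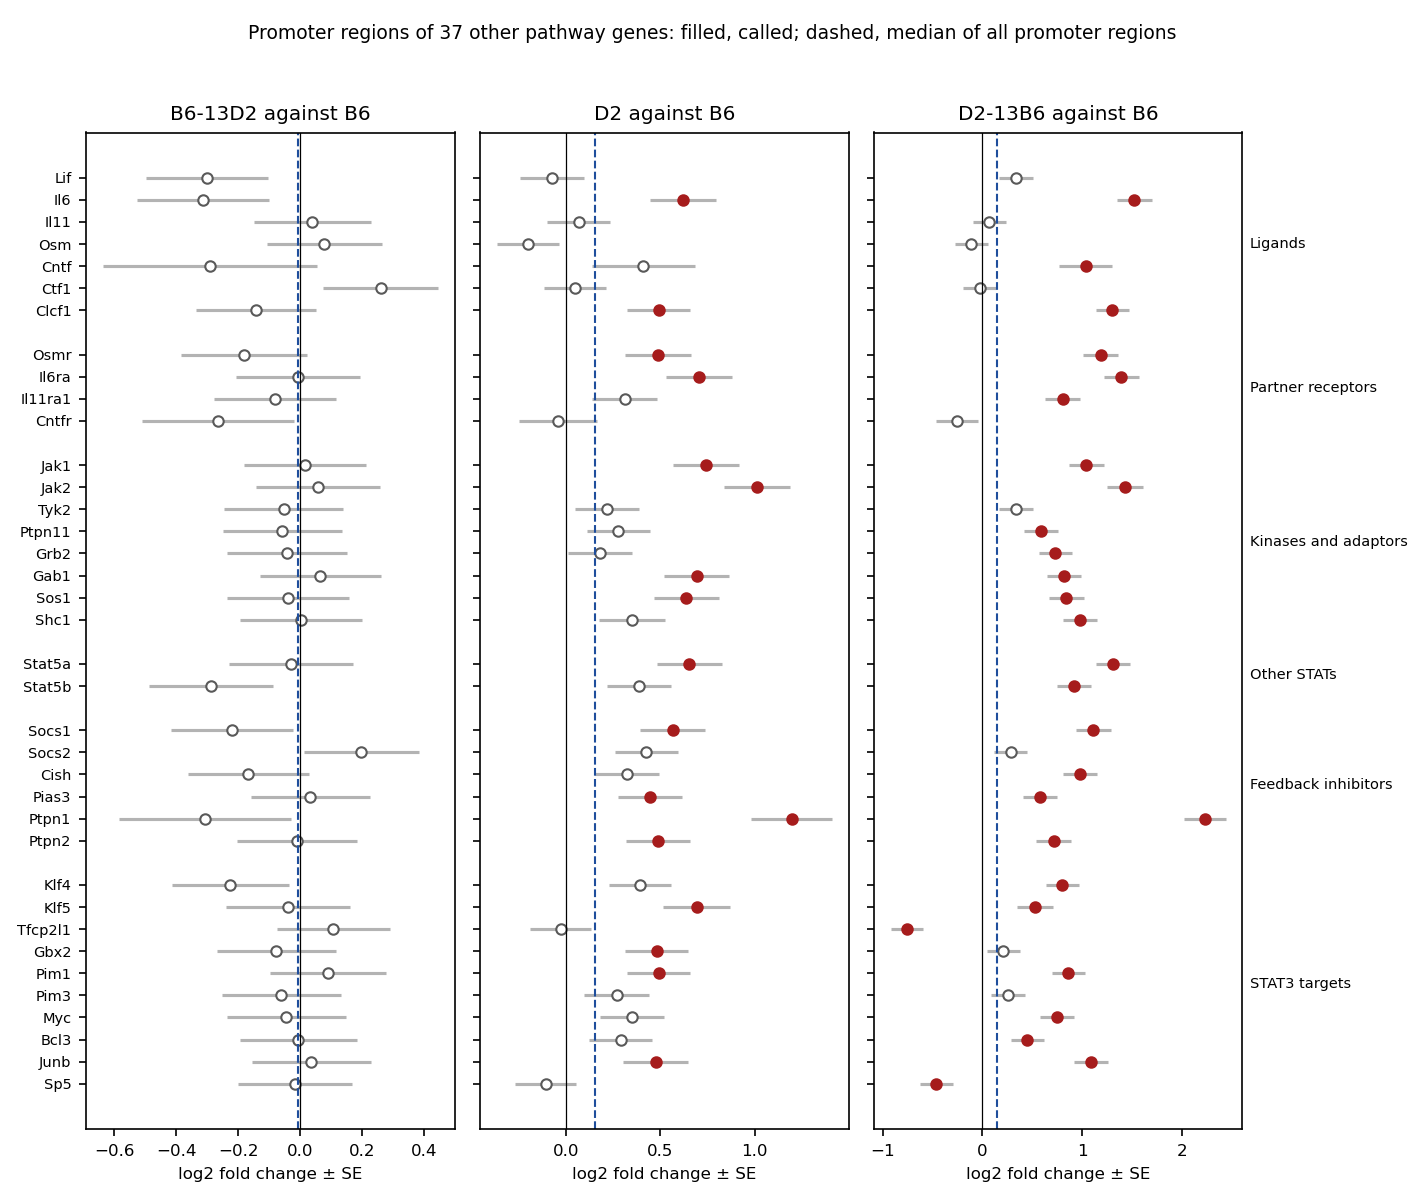
Log2 fold change ± SE of the promoter regions of 37 pathway genes, grouped by role, in 3 comparisons with B6 (each with its own horizontal scale); filled points are called and the dashed line is the median of all promoter regions. Filled points appear in D2 against B6 (17) and D2-13B6 against B6 (28), and none in B6-13D2 against B6.

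Among the 7 ligand genes, 3 were higher in D2-13B6 than in B6, a share near the 37.4% of all promoter regions. Il6 had 5.82 ± 0.616 CPM in B6 and 16.7 ± 3.11 in D2-13B6 (SD, n = 3; log2 fold change 1.52 ± 0.18 SE). Clcf1, a ligand of the CNTF receptor, had 14.5 ± 1.63 and 35.9 ± 5.58 (1.30 ± 0.17). Lif itself, on chromosome 11, was not called in any comparison, with 18.7 ± 4.22 CPM in D2-13B6 and 14.0 ± 1.66 in D2, beside 14.8 ± 0.185 in B6 and 11.05 and 12.95 in the B6-13D2 libraries. Of the 4 partner receptors, the same 3 (Il6ra, Osmr and Il11ra1) were higher in D2-13B6 than in both B6 and D2. Of all promoter regions, 37.4% were higher in D2-13B6 than in B6 and 15.8% higher than in D2. Il6ra, the interleukin 6 receptor, changed by 1.39 ± 0.18 in D2-13B6 against B6 and -0.69 ± 0.17 in D2 against D2-13B6, and Osmr, which pairs with gp130 for oncostatin M, by 1.19 ± 0.17 and -0.70 ± 0.17.

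Of the 8 kinase and adaptor genes, 7 were higher in D2-13B6 than in B6 (37.4% of all promoter regions were) and 4 in D2 than in B6 (24.8% were). Jak2 rose by 1.43 ± 0.18 and 1.01 ± 0.18, and Jak1, the main kinase of gp130, by 1.04 ± 0.17 and 0.74 ± 0.17. Stat5a and Stat5b, which neighbour Stat3 on chromosome 11, rose by 1.31 ± 0.17 and 0.92 ± 0.17 in D2-13B6 against B6. Among 6 inhibitors, 5 rose in D2-13B6 against B6, beside the same 37.4%. The phosphatase gene Ptpn1 had the largest change of the lists, from 2.29 ± 0.349 CPM in B6 to 5.21 ± 0.790 in D2 and 10.7 ± 3.33 in D2-13B6 (log2 fold change 1.20 ± 0.21 and 2.23 ± 0.21). Socs1, another inhibitor of JAK kinases, rose by 1.11 ± 0.17.

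The 10 STAT3 targets known in embryonic stem cells did not share a direction. In D2-13B6 against B6, 6 of 10 were higher (37.4% of all promoter regions were), among them Junb (1.09 ± 0.17), Pim1 (0.86 ± 0.17) and Klf4 (0.80 ± 0.17), and 2 were lower. The lower ones were Tfcp2l1, a transcription factor that maintains the undifferentiated state, at -0.76 ± 0.16, and Sp5 at -0.46 ± 0.16. Within chromosomes Sp5 was at -0.38 (adjusted p = 0.0574) and was not called. Tfcp2l1 had 25.1 ± 1.93 CPM in D2-13B6 and 41.6 ± 3.35 in D2, beside 42.5 ± 2.62 in B6 and 45.7 ± 0.960 in B6-13D2. It was the 1 pathway promoter higher in D2 than in D2-13B6 (0.73 ± 0.16), the direction of all 5 embryonic stem cell markers. Fibroblast and stem cell marker values that moved with these lists are given above.

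Promoters elsewhere followed the same profile over the 11 libraries. Likeness was measured as the root mean square difference of log2 CPM after centring each region on its mean. The closest of 38057 promoter regions of other genes were Ptprj, Tspyl2 and Atxn7 for Lifr (0.0588 to 0.0674), beside a median of 0.478. For Il6st they were Btbd6, Epb41l4a and Lama3 (0.0445 to 0.0604, median 0.371). For Stat3 they were Rab5c, the shared region of 1700047K16Rik and Zfp672, and that of Socs1 and Tnp2 (0.0519 to 0.0595, median 0.540). For Socs3 they were Plin2, Plxnb2 and the shared region of Poldip3 and Rnu12 (0.0497 to 0.0645, median 0.471).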

How the data were processed

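The 11 ATAC-seq libraries share 1 deposited table of raw read counts per region, which holds whole numbers and no normalisation. Per the submitters' processing notes, the build was mm10 and the tools included Trimmomatic 0.39, BWA 0.7.5, Picard 2.0.1, MACS 1.4.2, bedtools 2.9.2 and edgeR 3.34.1, without stated roles, so how reads were shifted, filtered or counted is not given in the sources used here. The mm10 build is of C57BL/6J, and an effect of D2 variants on the counts was not tested. Regions under the edgeR filter on low counts were left out (1496 of 248336). The counts were fitted in 1 model of all 11 libraries with edgeR 4.0.16 (TMM factors, quasi-likelihood test), in R 4.3.3, with Benjamini-Hochberg adjustment over 246840 regions in each of 6 comparisons. DESeq2 1.42.0, other scalings, TMM within each chromosome, no filter, only the libraries compared, a replicate block and leaving out each library in turn were the 18 alternatives. The fit was tested on simulated data. Distances run from the midpoint of a region to the main start site (GENCODE M21), along the gene. Regions named are those at start sites, the most accessible per kb of each locus, and those with the smallest p in each direction and comparison among called regions whose groups do not overlap. Members and gene lists were chosen with earlier results of these data known. From those lists 1 gene is not reported here and was left out of the counts. Libraries of a line differed by more than counting noise (chi-square per degree of freedom 2.06 to 6.33 over 10 pairs), so none was counted as a duplicate.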

Additional observations from a re-analysis of the deposited data

Results flagged for a closer look

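In 5 regions the edgeR interaction test called the change from B6 to B6-13D2 different from that from D2-13B6 to D2 (B6-13D2 minus B6, less D2 minus D2-13B6). At Lifr the difference was 1.52 ± 0.47 (SE, log2, adjusted p = 0.0374) for the region 71.0 kb downstream of the start and 2.01 ± 0.62 (adjusted p = 0.0357) for the coding exon region 44.0 kb downstream. Both were still called within chromosomes, but they held in only 9 and 8 of 17 alternatives. With total counts both were lost (adjusted p = 0.0796 and 0.0632). The first was also lost with the replicate block (adjusted p = 0.0574), and the second was not called with DESeq2. Each was lost on leaving out any 1 of several libraries, for example B6 replicate 2 (1.31 and 1.76, adjusted p = 0.0933 and 0.0855) or D2-13B6 replicate 2 (1.36 and 1.70, adjusted p = 0.0912 and 0.113). At Il6st it was -1.19 ± 0.33 (adjusted p = 0.0196) at 22.6 kb, -1.47 ± 0.47 (adjusted p = 0.0441) at 53.3 kb and -1.51 ± 0.40 (adjusted p = 0.014) at 54.2 kb. Within chromosomes these were -0.78, -1.06 and -1.10 (adjusted p = 0.154, 0.173 and 0.0841), and none was called. Without B6-13D2 replicate 2 they were -1.07, -1.16 and -1.41 (adjusted p = 0.127, 0.252 and 0.0913). The call at 53.3 kb was also lost with size factors by relative log expression, DESeq2 and the replicate block (adjusted p = 0.0567, 0.0696 and 0.0736).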

How the results depend on the processing

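None of the named results changed sign past the threshold under any of the 18 alternatives, and leaving out the filter changed no call. The count of called regions for D2 against B6 was 10 with total counts (24.5% of all regions called) and 10 with only the libraries compared (27.2%). For D2 against B6-13D2 it was 5 with DESeq2 (16.5%). For the interaction it was 2 within chromosomes (6.63%) and 3 with DESeq2 (6.21%). Leaving out 1 library gave 4 to 8 called regions for D2 against B6, 0 to 0 for B6-13D2 against B6, 3 to 10 for D2 against B6-13D2, 13 to 26 for D2 against D2-13B6, 23 to 31 for D2-13B6 against B6 and 1 to 10 for the interaction. The interaction count was 1 without B6 replicate 2 or B6-13D2 replicate 2, 2 without B6-13D2 replicate 1, D2 replicate 3 or D2-13B6 replicate 2, 3 without D2 replicate 1, and 10 without D2-13B6 replicate 3. Over all regions the share called by the interaction in these fits ran from 1.92% without B6-13D2 replicate 2 to 11.8% without D2-13B6 replicate 3. Total counts moved the median of all regions by -0.13 in D2 against B6, -0.29 in D2-13B6 against B6 and 0.17 in D2 against D2-13B6. Replicate numbers did not pair the samples: same-numbered libraries of different lines correlated at -0.05 to 0.07 over 15 pairs, others at -0.15 to 0.16 over 30. With the replicate block the interaction count was 3, and 141 of 144 results for named regions stayed on the same side of the threshold. Precision is limited in regions with few counts, such as the Lifr region 44.0 kb downstream with as few as 2.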
